A study of Homo sapiens with 6 samples.

Results

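RMRP and RPPH1 are the RNA components of the ribonucleases MRP and P, and their bases were followed one by one in Nm-mut-seq libraries of chromatin-associated RNA (caRNA). RMRP was taken as chr9:35657754-35658017 of hg38, minus strand (ENSG00000277027.1, 264 nt), and RPPH1 as its GENCODE release 44 gene, chr14:20343075-20343407, minus strand (ENSG00000277209.1, 333 nt). Both are annotated as ribozymes, and every position counted here is a position of the transcript itself. They were chosen by the measured share of positions where reads with T passed the site criteria, which was high in RMRP. That share is therefore a description here. RMRP has 214 G, A and C positions, and all 214 are listed under imbalanced dNTP. RPPH1 has 277, and 209 of these are listed. Together they make up 423 of the 176343 positions listed under imbalanced dNTP.

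The libraries come from HepG2, a human liver cancer cell line with a hepatocyte-like expression pattern, in 3 biological replicates. Ribosomal RNA was depleted and RNA shorter than 200 nt was removed from the caRNA of all replicates, and after ligation each replicate was split for reverse transcription with imbalanced and with balanced dNTP, the input. In both reactions dATP was at 1 mM, while the remaining dNTPs were at 2 µM when imbalanced and at 1000 µM when balanced. The comparison of the reactions asks where reverse transcriptase writes T at a G, A or C, the readout used for 2′-O-methylation (Nm). The groups differ in the dNTP supply only, no cell was treated, and 1 cell line in culture is the only source. Of 8 hepatocyte genes looked up as a check of the cell type, 6 had listed positions, with 6226 in APOB, 1122 in AFP, 806 in ALB and 6 in APOA1, while FGB and TTR had 0.

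RNase P cuts the 5′ leader from precursor tRNAs, and RNase MRP cuts the precursor of the ribosomal RNAs in the nucleolus. Their RNAs are transcribed by RNA polymerase III, fold into related catalytic cores and bind a largely common set of proteins. Mutations of RMRP cause cartilage-hair hypoplasia, a human disorder of the skeleton and the immune system. Nm is a methyl group on the ribose, placed in many noncoding RNAs by fibrillarin with box C/D snoRNAs as guides. When dATP is in large excess, reverse transcriptase tends to insert A opposite a methylated G, A or C, which is then read as T. Unmethylated bases can be misread too. An unmethylated spike-in measures that background in the assay. It is not used here, so whether a given T share comes from Nm was not tested.

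The sequences are shown because the results turn on the bases beside each position. RMRP is given whole, read 5′ to 3′ from hg38 as RNA on the minus strand, with the 5 positions of highest T share in capitals. These are C49, C131, G146, A233 and G260, counted from 1 at the 5′ end of the transcript.

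RMRP, chr9:35657754-35658017: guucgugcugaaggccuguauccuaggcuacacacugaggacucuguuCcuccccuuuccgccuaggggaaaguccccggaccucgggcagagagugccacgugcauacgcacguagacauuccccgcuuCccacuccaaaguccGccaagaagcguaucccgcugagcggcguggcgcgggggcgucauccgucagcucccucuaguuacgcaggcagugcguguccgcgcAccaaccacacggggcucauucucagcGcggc

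Each capital lies between pyrimidines, the bases C and U. The lowest T shares of RMRP lay in stretches of another kind, shown here with the position itself in capitals and 10 nt on each side.
RMRP G88, chr9:35657920-35657940: cggaccucggGcagagagugc
RMRP G69, chr9:35657939-35657959: ccgccuagggGaaaguccccg
RMRP G13, chr9:35657995-35658015: ucgugcugaaGgccuguaucc
In all 3 windows the capital has a purine, A or G, on its 5′ side. The 5 positions of RPPH1 with the highest T share are shown in the same way, on the minus strand of hg38, and the window of C329 is shorter because the transcript ends there.
RPPH1 C329, chr14:20343075-20343089: cuacucuccuCcgcc
RPPH1 G229, chr14:20343169-20343189: ugccuccuuuGccggagcuug
RPPH1 C138, chr14:20343260-20343280: gaggugaguuCccagagaacg
RPPH1 C290, chr14:20343108-20343128: gugagguaccCcgcaggggac
RPPH1 C289, chr14:20343109-20343129: ggugagguacCccgcagggga
These 5 also have a pyrimidine on both sides, and C289 and C290 are neighbours in 1 run of C.

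Reads with T were spread over nearly all G, A and C positions of RMRP under imbalanced dNTP. The mutation ratio, the reads with T as a percent of the depth at a position, averaged 2.99% in replicate 1, 3.12% in replicate 2 and 2.93% in replicate 3 over the 214 positions (mean 3.01% ± 0.0982, SD, n = 3). Under balanced dNTP it averaged 0.0925%, 0.0995% and 0.0969% over the same positions. The groups did not overlap, as a description, since RMRP was chosen by its reads with T. A ratio over 5% was found at 43, 41 and 35 positions and a ratio over 10% at 4, 5 and 4. No position of RMRP was without reads with T in any imbalanced dNTP library. In replicate 1 the lowest position had 0.150%, the median position 2.18% and the highest 16.4%.

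RPPH1 had a mean ratio of the same order. Over its 209 listed positions the ratio averaged 3.31%, 3.22% and 3.14% under imbalanced dNTP (mean 3.22% ± 0.0815, SD, n = 3). Over the 164 positions listed under balanced dNTP it averaged 0.137%, 0.170% and 0.169%. Over the 129 positions listed under both it averaged 3.42%, 3.22% and 3.35% under imbalanced and 0.147%, 0.176% and 0.172% under balanced dNTP. The groups of libraries did not overlap in RPPH1 either, over these or over all listed positions. This is a description, since reads with T chose these RNAs. Under imbalanced dNTP RPPH1 held 43, 36 and 38 positions over 5% and 6, 10 and 9 over 10%. It also had 12, 12 and 3 listed positions with 0 reads with T in replicates 1, 2 and 3, which did not occur in RMRP. The lowest depth there was 82, 85 and 128 in RPPH1, against 1333, 1224 and 1585 in RMRP.

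The RNAs differed less from each other than the handling of unlisted positions moved them. RMRP was lower than RPPH1 in 3 of 3 libraries, by 0.210 percentage points on average (SD 0.104), as a description, since RMRP was chosen for its reads with T. With reads pooled over positions the difference was -0.0497 percentage points, and RMRP was lower in 2 of 3 libraries. With the 68 unlisted positions of RPPH1 counted as 0, RMRP was higher in 3 of 3 libraries, by 0.582 percentage points. A position is listed only where reads with T were seen, so the mean of RPPH1 probably leaves out positions with few such reads. The 3 lowest listed positions of RPPH1, A93, A161 and C90, had 4, 3 and 3 reads with T in their highest library. Under balanced dNTP C290 was listed with 1 such read in its highest library. The list under imbalanced dNTP may thus ask for more than 1. How many reads with T the unlisted positions hold is not known. A ratio of 0 is the lowest value they can have, here and wherever unlisted positions are counted as 0.

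The unlisted positions of RPPH1 were not a random draw of its sequence. Of the 68, 39 were G, 12 A and 17 C. Purines lay on both sides of 49 of them (72.1%), against 37 of the 209 listed positions (17.7%). Only 1 of the 68 had a pyrimidine on both sides, against 55 of the 209. RPPH1 thus lost from the list mainly the kind of position that had the lowest ratios in RMRP.

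**Figure D1:**
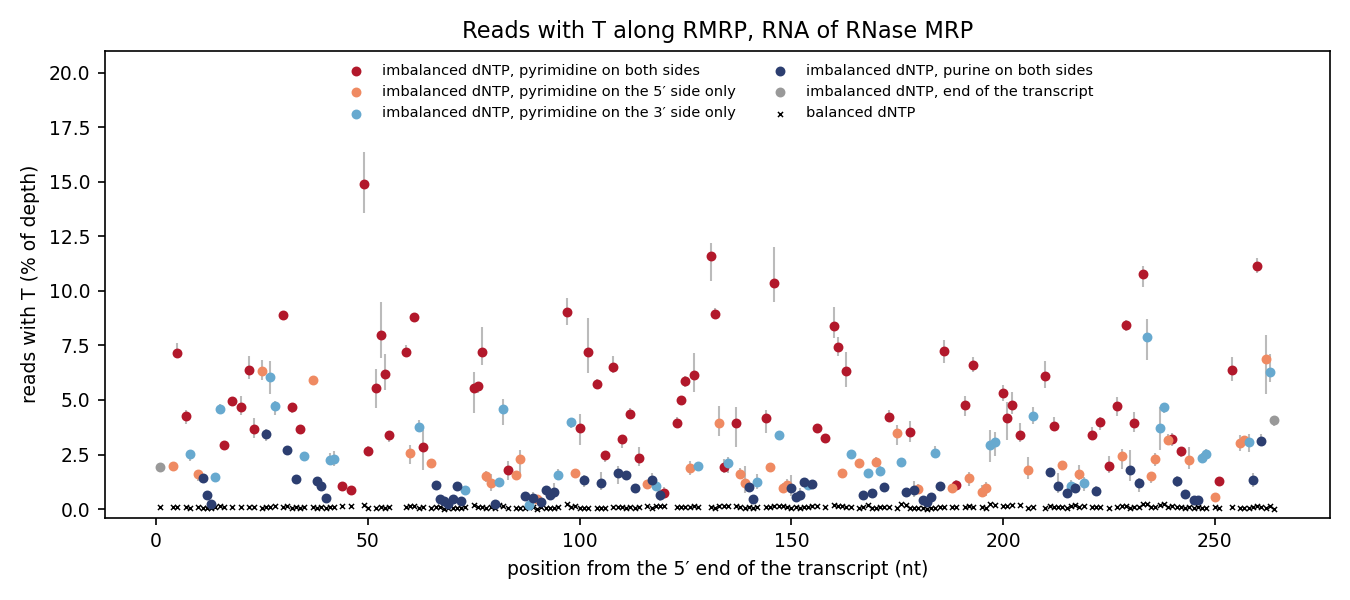
Mutation ratio (reads with T, % of depth) against the position in RMRP, counted in nt from the 5′ end. Filled points are means of the 3 imbalanced dNTP libraries, coloured by the pyrimidine neighbours of the position, with grey lines from the lowest to the highest library, and crosses are means of the 3 balanced dNTP libraries. High points are mostly those with a pyrimidine on both sides and lie along the whole RNA, while the crosses stay near 0.

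By the criteria on depth, reads with T and input, 207 of the 214 positions of RMRP passed in all 3 replicates (96.7%) and 105 of the 209 of RPPH1 (50.2%, or 37.9% of its 277 G, A and C positions). Of all 110980 positions in the table that reached a depth of 10 in the 3 replicates, 26.7% passed. Outside these RNAs, 94.1% of 1920 positions with 1000 reads or more in each replicate passed. At a lowest depth of at least 100 and under 300, the range that holds the median depths of RPPH1, 62.6% of 13807 did. The share was among the values that chose these RNAs, and nothing is read from it. The positions that passed in RMRP were 69 of 74 G, 46 of 47 A and 92 of 93 C, and in RPPH1 42 G, 15 A and 48 C.

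The 7 positions of RMRP that did not pass were all next to a purine on the 5′ side. G13, A72, G80, G88, G91 and C119 did not exceed 3 times the ratio of their input in some replicate, and G69 had under 3 reads with T in replicate 2. Their mean ratios lay between 0.174% at G88 and 0.634% at C119. In RPPH1, 103 of the 104 listed positions that did not pass had under 3 reads with T in some replicate, where the median depth was 174, 159 and 237. At such depths a ratio near the mean of RPPH1 amounts to a few reads with T.

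C49 had the highest ratio of RMRP. It was 16.4%, 14.8% and 13.6% in replicates 1, 2 and 3, at depths of 2201, 2077 and 2905, with a Wilson 95% confidence interval from 14.9% to 18.0% in replicate 1. In the balanced dNTP libraries it was 0.167%, 0.159% and 0.264%. The other high positions followed at some distance. C131 had 12.1%, 12.2% and 10.5%, and G260, close to the 3′ end, had 10.8%, 11.5% and 11.1%. A233, the highest A, had 11.1%, 11.1% and 10.2%. G146 had 9.47%, 12.0% and 9.61%. The libraries of these 4 positions overlap, so that their order is within the spread. The highest ratio of RMRP under balanced dNTP was at G97, with 0.143%, 0.273% and 0.352%, and there the imbalanced dNTP libraries had 9.66%, 8.43% and 9.01%.

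At the lower end, G88 had 0.173%, 0.146% and 0.203% under imbalanced dNTP, against 0.0839%, 0.0813% and 0.0757% under balanced dNTP. G69 had 0.226%, 0.126% and 0.364%. The ratio within RMRP thus ranged from close to that of the input to over 10%, in the same libraries.

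In RPPH1 the highest position was C329, with 15.9%, 12.3% and 11.6% at depths of 138, 138 and 181. The Wilson 95% interval in replicate 1 ran from 10.8% to 23.0%, several times wider than at C49 of RMRP. G229, the highest G, had 8.38%, 15.1% and 13.4%, and C138 had 12.8%, 8.29% and 14.2%. C290 had 8.74%, 12.6% and 11.2%, and C289 had 11.4%, 11.1% and 8.86%. Among these 5 only the libraries of C329 and C289 did not overlap. The highest A of RPPH1, A28, had 7.46%, 5.42% and 3.36%. The highest ratio under balanced dNTP was at G163, with 0%, 1.11% and 0.843% against 4.09%, 3.36% and 2.14% under imbalanced dNTP, and this position did not pass the criteria. Intervals cover counting error only.

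**Figure D2:**
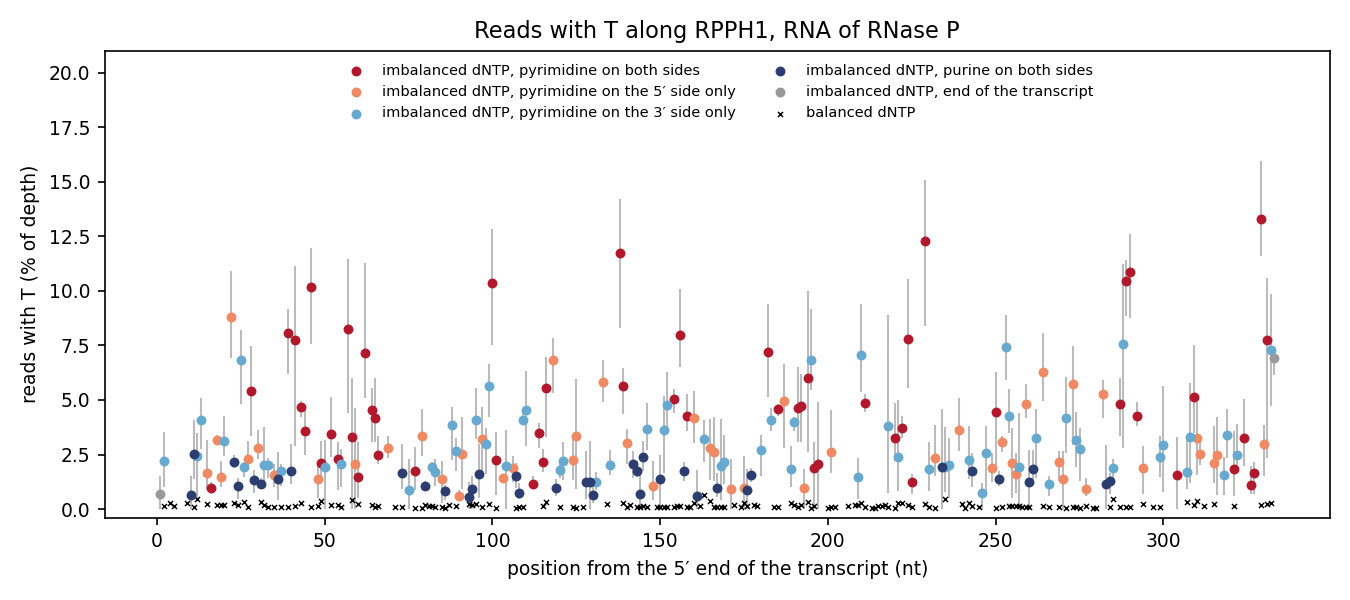
Mutation ratio (reads with T, % of depth) against the position in RPPH1, counted in nt from the 5′ end, drawn as for RMRP: points are means of 3 imbalanced dNTP libraries, grey lines span the libraries and crosses are balanced dNTP means where listed. The grey lines are longer than in RMRP, and the median depths were 159 to 237.

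The pattern along RMRP recurred in each replicate. Across its 214 positions the ratio correlated between replicates with Pearson's r of 0.973 (1 and 2), 0.978 (1 and 3) and 0.972 (2 and 3), as a description over positions that share the sequence. The mean chi-square of reads with T per position was 1.19, 1.20 and 1.40, where sampling noise alone gives about 1. In RPPH1 r was 0.634, 0.726 and 0.689, with a mean chi-square of 1.31, 1.31 and 1.24. The chi-square of RPPH1 was within the range of RMRP, while its correlations were lower at its lower depth. No pair of replicates had identical reads with T at more than 11 positions of RMRP or 24 of RPPH1.

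**Figure D3:**
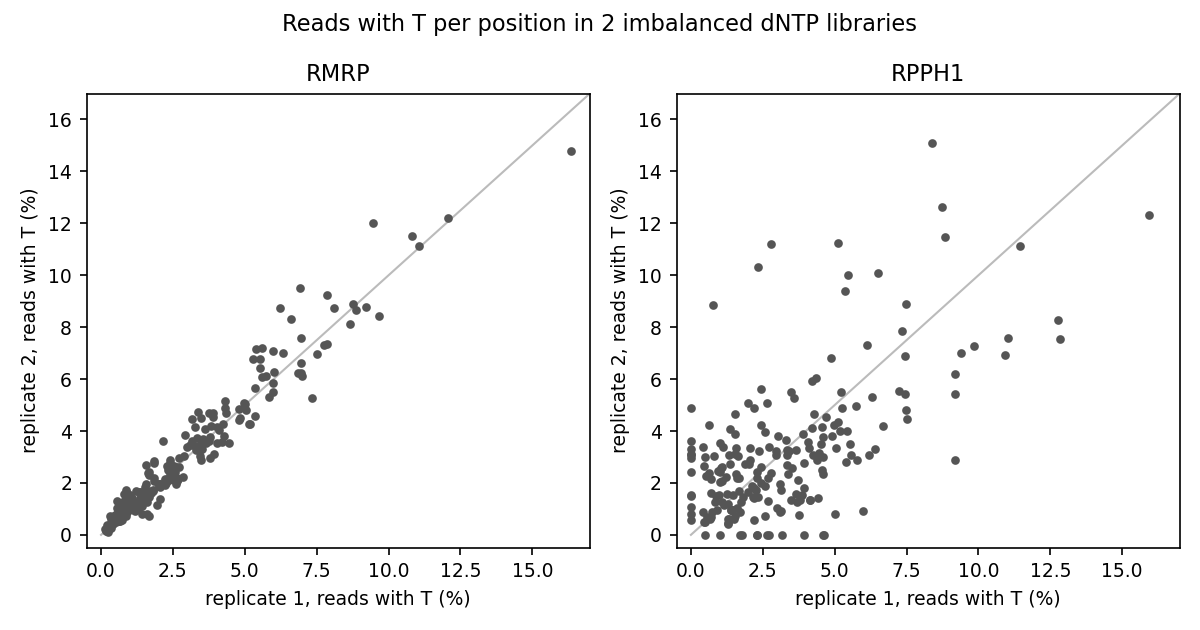
Mutation ratio of each listed position in imbalanced dNTP replicate 2 (vertical axis, %) against replicate 1 (horizontal axis, %), for RMRP on the left and RPPH1 on the right, with the line of equality. The RMRP points lie close to the line (r = 0.973), the RPPH1 points scatter around it (r = 0.634).

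All bases of RMRP gave reads with T, and C gave most. The ratio averaged 3.31%, 3.41% and 3.14% at C, 2.96%, 3.16% and 3.00% at G and 2.43%, 2.50% and 2.39% at A. G was above A by 0.601 percentage points (SD 0.0634), and A was below C by 0.845 (SD 0.0881), each in 3 of 3 libraries. For these and the other differences within an RNA below, the two-sided exact permutation of signs over 3 pairs gave p = 0.25, the minimum for 3 pairs, also after Benjamini-Hochberg adjustment over 19 differences. With reads pooled over positions, G was above A by 0.280 and A differed from C by -0.505 percentage points. G was below C by 0.244 percentage points (SD 0.105) in 3 of 3 libraries, although the ranges of the libraries at G and C overlap, and with medians over positions this was -0.570. Under balanced dNTP the means were 0.0923% at G, 0.0830% at A and 0.106% at C.

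RPPH1 had the same order of bases with a larger distance to A. The ratio averaged 3.86%, 3.56% and 3.72% at C, 3.58%, 3.48% and 3.42% at G and 1.97%, 2.27% and 1.76% at A. G was above A by 1.49 percentage points (SD 0.242) and below C by 0.218 (SD 0.123), in 3 of 3 libraries. With unlisted positions as 0, G minus A was 0.686 and G minus C -0.788 percentage points. The A of RPPH1 stood apart from its G and C in every library.

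Pyrimidines on both sides of a position, against purines on both sides, went with a larger difference than the base itself. In RMRP the 74 positions with a pyrimidine on both sides averaged 5.22%, 5.41% and 5.02%, and the 59 with a purine on both sides 0.957%, 0.998% and 0.968%. The difference was 4.24 percentage points (SD 0.181), with no overlap between the libraries. Positions with 1 pyrimidine lay between, with 2.15% where it was on the 5′ side (41 positions) and 2.82% where it was on the 3′ side (38 positions). Under balanced dNTP the same classes had 0.106% and 0.0747%, a difference far smaller than that under imbalanced dNTP.

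RPPH1 showed the same steps over its listed positions, at its lower depth. The 55 listed positions between pyrimidines averaged 4.93%, 4.99% and 5.12%, and the 37 between purines 1.28%, 1.40% and 1.35%. The difference was 3.67 percentage points (SD 0.0899). Of the 86 positions of RPPH1 between purines 49 are not listed, against 1 of the 56 between pyrimidines. The mean between purines thus probably leaves out positions with few reads with T. With a pyrimidine on the 5′ side only the mean was 2.82%, and on the 3′ side only 3.07%. These comparisons, and those of a C on the 3′ side, were chosen after the values were seen.

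**Figure D4:**
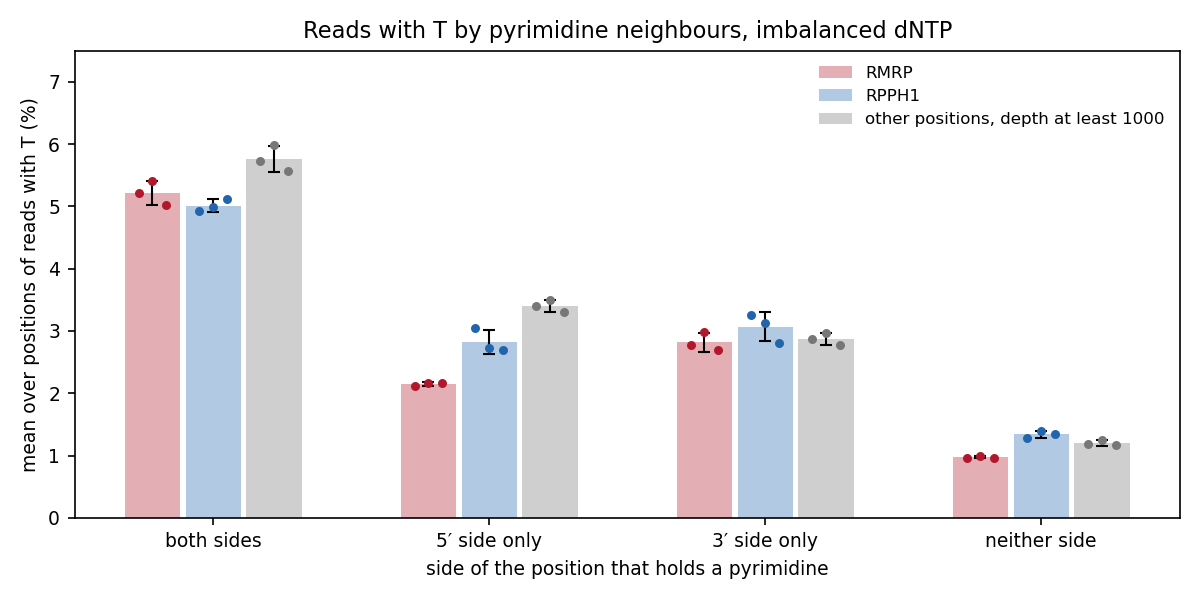
Mean mutation ratio (reads with T, %) over listed positions under imbalanced dNTP, by the side on which a position has a pyrimidine. The sets are RMRP, RPPH1 and 1920 other positions that reached a depth of 1000. Bars are means of 3 libraries, points are the libraries and error bars are SD. In all 3 sets the class with pyrimidines on both sides is highest and the class with none is lowest.

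C on the 3′ side went with higher ratios in both RNAs. In RMRP the 71 positions followed by C averaged 5.12%, against 1.95% at the others, a difference of 3.16 percentage points (SD 0.149). In RPPH1 the 76 listed positions followed by C averaged 4.54%, against 2.44% at the other listed ones, a difference of 2.10 (SD 0.109). Within the C positions of RMRP, the 29 followed by another C averaged 6.12% and the 24 followed by G 1.50%. In RPPH1 the same classes had 5.37% over 36 positions and 1.75% over 8. CC and CG therefore differed in the same direction in both RNAs, in every library.

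U on the 5′ side also went with higher ratios. In RMRP the 42 positions preceded by U averaged 4.53%, against 2.65% at the others (difference 1.88, SD 0.147), and in RPPH1 44 positions averaged 4.58%, against 2.88% (difference 1.70, SD 0.228). For U on the 3′ side there was no stable direction. The difference was 0.166 percentage points in RMRP (SD 0.0587) and -0.312 in RPPH1 (SD 0.199). Each reversed under another setting: to -0.0269 in RMRP without the first and last 20 nt, and to 0.428 in RPPH1 with unlisted positions as 0.

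Among the pairs of neighbours, UNC was highest in both RNAs. The 20 UNC positions of RMRP averaged 6.52% and the 27 CNC positions 5.89%, while 22 GNG positions had 0.905% and 12 GNA positions 0.835%. In RPPH1, 16 listed UNC positions averaged 6.30% and 21 CNC positions 5.36%, while the 17 listed GNG positions had 1.31%. UNU, with U on both sides, was not at the top in RMRP, with 3.31% over 8 positions. In RPPH1 5 UNU positions had 3.99%, 5.38% and 4.73%.

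The positions at both ends of the order show the same composition. Of the 20 highest positions of RMRP, 18 had pyrimidines on both sides and 16 were followed by C, against 74 and 71 of 212 with both neighbours in the transcript. Of the 20 lowest, 17 had purines on both sides. Among the listed positions of RPPH1, 15 of the 20 highest had pyrimidines on both sides and 16 were followed by C. Of the 20 lowest listed ones, 12 had purines on both sides.

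RMRP was set beside the 1920 other positions that reached a depth of 1000 in each replicate, among them 291 in the overlapping snoRNA host genes RCC1 and SNHG3 and 225 in MALAT1. These values are a description, since RMRP was chosen by its reads with T. Its mean ratio of 3.01% compares with 3.26% there. At C the values were 3.28% and 3.27%, and at G 3.04% and 3.75%. Between pyrimidines they were 5.22% and 5.76%, and between purines 0.975% and 1.20%. The step from purine to pyrimidine neighbours was thus present outside RMRP as well. Of the 15 classes compared, the largest distance was at UNU, with 3.31% over the 8 positions of RMRP and 6.45% over 166 others.

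Predicted structure went with a smaller difference. The fold of lowest free energy for RMRP (-103 kcal/mol) pairs 59.1% of its bases, and that for RPPH1 (-162.2 kcal/mol) 68.5%. These folds are predictions from the sequence alone, without the proteins. Positions predicted as unpaired had a ratio of 2.68% in RMRP and paired ones 3.23%, a difference of -0.547 percentage points (SD 0.00813). In RPPH1 the values were 2.77% and 3.43%, a difference of -0.661 (SD 0.284). Unpaired positions were lower in 3 of 3 libraries of each RNA. The difference was -0.299 in RMRP with reads pooled over positions and -0.284 in RPPH1 when taken within each base.

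The depth along RMRP changed with the dNTP supply. The median depth over the 214 positions was 2037, 1816 and 2347 under imbalanced and 5785, 4100 and 4654 under balanced dNTP. The median over positions of the ratio of imbalanced to balanced depth, divided by the same median over the 35761 positions listed in both tables, was 0.671, 0.630 and 0.701, or -0.58 on the log2 scale (SD 0.08). RMRP thus lost more depth than the median of those listed positions in 3 of 3 pairs. They were not matched to RMRP for depth, and they are listed only where reads with T were seen. The effect of this on the relative ratio was not tested. With the ratio of summed depths in place of the median of ratios, the value was -0.25 on the log2 scale. In RPPH1 the median depth over the 129 positions listed in both tables was 169, 153 and 234 against 436, 288 and 396, and the relative ratio was 0.791, 0.851 and 0.859 (-0.26 on the log2 scale, SD 0.07).

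The loss was not even along RMRP. In its first 50 nt the relative ratio was 1.51, 1.48 and 1.51, and from 51 to 100 it was 0.570, 0.562 and 0.575. Further on it rose to 0.625 (101 to 150), 0.666 (151 to 200) and 0.779 (201 to 250), and it was 1.35 over the last 14 nt. Under imbalanced dNTP the depth fell from 6517, 5974 and 7289 at G18 to 1519, 1353 and 1965 at C55. Over the same stretch the balanced dNTP libraries went from 7526, 5315 and 5930 to 6036, 4044 and 4558. This step in depth spans C49, the position with the highest ratio, and its part in that ratio was not tested. RPPH1 had a relative ratio of 1.05 in its first 50 nt, the lowest value of 0.672 from 201 to 250 and 1.10 over the last 33 nt, without a step of that size.

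**Figure D5:**
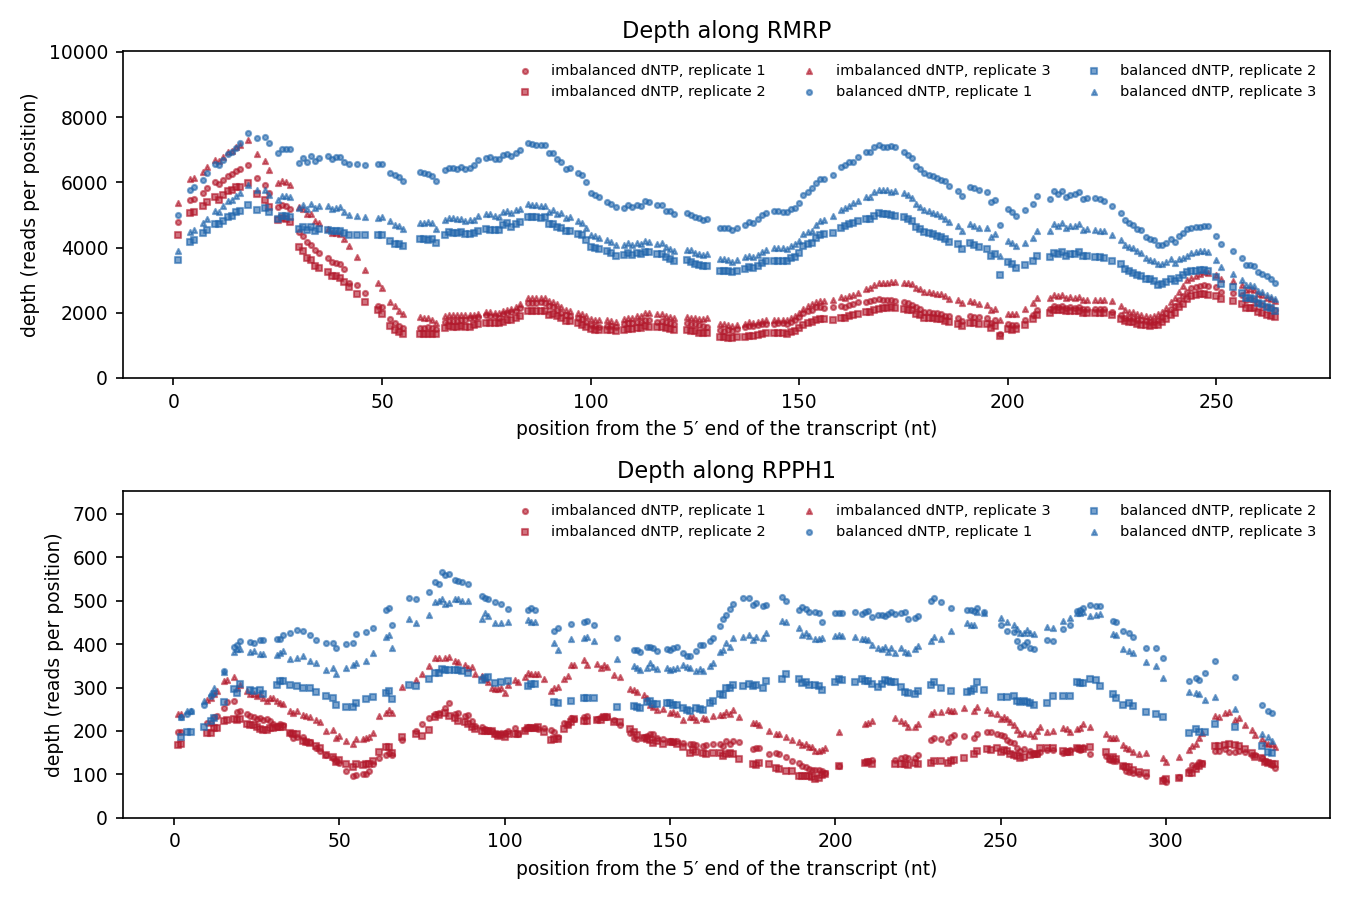
Depth (reads per position) against the position in nt from the 5′ end for RMRP (top) and RPPH1 (bottom), with 1 mark for each listed position and library. In RMRP the imbalanced dNTP libraries start at the level of the balanced ones and fall to a lower level by position 55, where they have 1353 to 1965 reads against 4044 to 6036.

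Mismatches other than T are a readout that did not choose these RNAs. They made up 0.219% ± 0.00897 of the depth of RMRP under imbalanced and 0.222% ± 0.00553 under balanced dNTP (SD, n = 3). By edgeR's quasi-likelihood test, 1 of 214 positions of RMRP had a higher share under imbalanced dNTP at an adjusted p under 0.05 and 0 a lower one. Over all 32284 positions tested, 0.0898% were higher and 0.108% lower. At an unadjusted p under 0.05 by edgeR there were 27 of the 214 positions of RMRP and 840 of the 32284. These counts were not matched for depth, so whether RMRP had an excess cannot be read from them. Under imbalanced dNTP the lowest depth in RMRP was 1333, 1224 and 1585. The median depth over all listed positions was 17, 15 and 23. The median log2 change in RMRP was 0.0161. The called position was G61. Its other mismatches were at 0.321%, 0.807% and 0.603% of the depth under imbalanced and 0.160%, 0.141% and 0.0626% under balanced dNTP. The log2 change there was 2.32 (edgeR adjusted p = 0.00193). The test set other mismatches against reads of the reference base and left out reads with T. The call rests on 5, 11 and 11 reads in the imbalanced dNTP libraries, and it was not called by DESeq2, by Fisher's exact test in each replicate, or by edgeR without replicate 2 or 3. Its T ratio was 8.80% on average.

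In RPPH1, edgeR called 0 of 129 positions, with 1 at an unadjusted p under 0.05, and DESeq2 also called 0, with 1 at an unadjusted p under 0.05. Among kinds of mismatch in RMRP, G read as A had 0.0780% under balanced and 0.141% under imbalanced dNTP, with no overlap between the libraries. A read as C, the most frequent mismatch other than T, had 0.365% and 0.312%, lower without overlap. G read as C, C read as A and C read as G were also lower without overlap, while the libraries overlapped for A read as G. These kinds were not compared with other positions of the series. In RPPH1 G read as A had 0.0834% and 0.122%, and the libraries overlapped. Next to the change of T, from 0.0918% to 3.01% at the G positions of RMRP in the pooled reads, these shifts were small.

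Other matches to these sequences in the genome were few, and the part of their reads in the values was not tested. Against hg38, RMRP had 5 other matches, none of them with at least 80 nt at 97% identity or more. The closest, chr2:160396866-160396934, matches 69 nt at 95.7% and holds 10 listed positions under imbalanced dNTP. RPPH1 had 1 other match, of 316 nt at 76.3%, with 0 listed positions. No listed position lay on the opposite strand of either gene, and the 20 nt on both sides of the gene held 8 listed positions at RMRP and 5 at RPPH1.

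Among 53 genes that held 100 or more positions of a depth of 100 or more, the profile of RMRP over the bases and libraries was nearest to RCC1 and SNHG3 (Euclidean distance of 0.233 over 9 log2 values). These overlap, share their 324 positions and hold the snoRNA genes SNORA73A (0.253) and SNORA73B (0.344). RPPH1 was nearest to ENSG00000259001 (0.175), a gene that overlaps it on its strand and shares its positions. ENSG00000270066 and SCARNA2, which share positions with each other, came next (0.446). The distance describes mean ratios only.

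Fewer positions were listed in the other RNAs of the kind. RN7SK, a transcript of RNA polymerase III that holds P-TEFb inactive, has 256 G, A and C positions, of which 31 were listed, all between positions 232 and 321, and 5 passed. Its mean ratio was 2.62%, 2.72% and 3.09% at median depths of 104, 78 and 114. Of 11 transcripts of RNA polymerase III looked up, 3 had listed positions, with 2 in RN7SL1 and 5 in RN7SL2 beside RN7SK. Y RNAs and vault RNAs had 0, and they are shorter than the 200 nt at which short RNA was removed. BCYRN1, of 200 nt, also had 0, while RN7SL1 and RN7SL2 are 299 and 300 nt long. The part of length in these counts was not tested. Copies elsewhere in the genome were searched for RMRP and RPPH1 only, so their part in these counts was not tested either. Of the 11 genes of protein subunits of RNase P and MRP, only RPP14 had listed positions, 2 in number, and 0 passed.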

How the data were processed

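Nm-mut-seq libraries of HepG2 caRNA were sequenced as single-end 100 nt reads. Before deposit, the authors used Cutadapt on the adapters and BBMap to collapse reads of equal molecular identifier. Mapping was by TopHat2 against hg38, and JACUSA tallied the bases. The deposited values are unnormalized read counts for every base at a position and strand of each library. The deposited JACUSA score was not used. Of the columns of per-sample counts, 0 were left without a library. Summed depth over listed positions was 17063930 to 22485865 under imbalanced and 22974020 to 34367262 under balanced dNTP. The precision of a ratio depends on the depth of its position, and Wilson 95% intervals cover counting error only.

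The mutation ratio is reads with T over depth, averaged over the listed positions of an RNA. A site passed with a depth of at least 10, at least 3 reads with T and a ratio over 3 times that of the same replicate's input in all 3 replicates. An input position that is not listed was given a ratio of 0. The spike-in criterion was not applied. All listed bases equal hg38. Positions were named by rule: in each RNA the 5 with the highest mean ratio where depth reached 100, the highest for each base, the highest in the input and up to 5 with changed other mismatches. The lowest 3 positions, those that did not pass, and G18 and C55 were chosen after their values were seen. The RNAs, lists, tests and this rule were chosen with earlier results of these data known.

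Differences within an RNA were tested per library by exact permutation of signs over the 3 pairs. Other mismatches were tested against reads of the reference base, without reads with T, by edgeR 4.0.16 (quasi-likelihood, R 4.3.3) over 32284 positions listed in both tables with a depth of at least 10, with an effect for each library and the replicate number as a block, Benjamini-Hochberg adjusted. The replicate numbers pair the libraries by the labels, since each pair comes from 1 ligated RNA. Simulated data with known changes were used to test the edgeR step. Alternatives were DESeq2 1.42.0, Fisher's exact test and other thresholds, averages, sets of positions and left-out replicates. Folding used ViennaRNA 2.7.2, copies were searched with blastn 2.17.0, and the other steps used Python 3.11.15.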

Additional observations from a re-analysis of the deposited data

Results flagged for a closer look

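The ratio at positions followed by U was compared with that at other positions in each RNA. It was higher by 0.166 percentage points in RMRP, in every library, and the difference was -0.312 percentage points in RPPH1, where every library was lower. The RNAs thus moved in opposite directions under the same comparison, and the difference between them was not tested. Neither direction held under all settings: the value was -0.0269 in RMRP without the first and last 20 nt, and 0.428 in RPPH1 with unlisted positions counted as 0.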

How the results depend on the processing

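Of 224 alternatives over 23 results, some could not change a value. Dropping the pairing alters only the p-value. Within RMRP, where all positions are listed at high depth, counting unlisted positions as 0 or raising the minimum depth alters no difference. With those included, 213 kept the direction and, for counts, stayed within 1.5 times. Several of these still moved by more: with reads pooled over positions RMRP minus RPPH1 was -0.0497, and in RMRP the differences were 0.280 for G minus A, -0.505 for A minus C, 0.410 for U on the 3′ side and -0.299 for unpaired minus paired. With the median over positions, G minus A in RPPH1 was 0.872, and with unlisted positions as 0 it was 0.686. U on the 3′ side within each base was 0.0638 in RMRP. The depth ratio of RMRP from summed depths was -0.25 on the log2 scale. The difference between RMRP and RPPH1 turned to 0.582 percentage points with unlisted positions as 0, and the difference for U on the 3′ side turned to -0.0269 in RMRP without the first and last 20 nt and to 0.428 in RPPH1 with unlisted positions as 0. Among counts of sites, RMRP had 35 and RPPH1 18 at a ratio of at least 0.05, and RPPH1 had 58 with at least 5 reads with T and 67 when a listed input was required. Without 1 replicate, RMRP had 208 to 209 sites and RPPH1 114 to 129. RMRP had 0 positions with changed other mismatches by DESeq2 and by Fisher's exact test, and 0 to 1 without 1 replicate. The calls over all 32284 positions, 64 in number, were 22 by DESeq2, 11 by Fisher's exact test, 41 at a depth of at least 50 and 10 to 24 without 1 replicate. Without the replicate block there were 129, of which RMRP had 1 and RPPH1 0, and the position of RMRP was G61 with and without the block. Dropping the pairing left every difference at its value, for example 0.601 for G minus A in RMRP (exact permutation test, two-sided, p = 0.1, the smallest for 3 against 3). The depth of RPPH1 limits what can be said of its single positions, and the exact permutation test on 3 pairs cannot give less than p = 0.25.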
